A study of Mus musculus with 6 samples.

Results

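The genes described here are 10 genes of the homeostatic programme of Müller glia, chosen by symbol from the deposited expression table: Glul, Slc1a3, Aqp4, Kcnj10, Car14, Rlbp1, Dkk3, Sox9, Prdx6 and Gpr37. All 10 were among the 28627 genes of the table, and all 10 were among the 16681 genes that passed the filter on low values. The study sequenced poly-A RNA of mouse retinas taken at postnatal day 15 from pups with oxygen-induced retinopathy, a model in which pups breathe high oxygen and are then returned to room air, so that the vessels of the retina first regress and then regrow. There were 3 libraries of Emcn-/- pups, which lack endomucin, a sialomucin of the endothelial surface, and 3 libraries of Emcn+/+ littermates. Both genotypes went through the retinopathy model, so there was no room-air group, and the labels name neither a Cre driver nor the design of the Emcn allele. Nothing in the labels says that the libraries came from different animals. A p-value here is therefore set against library-to-library spread, part of which may be technical.

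Müller glia are the radial glia of the retina and span it from the vitreous to the photoreceptors. They take up glutamate released by neurons and turn it into glutamine, carry potassium and water away from active synapses, buffer acid, and bind retinoids of the cone visual cycle. After injury they become reactive, when the filament protein Gfap rises and, in many models, the glutamine synthetase Glul and the channel Kcnj10 fall. The measurements are of bulk tissue, in which fewer cells of a type and less RNA per cell cannot be told apart. Several of the genes are also used by other cells: Slc1a3, Aqp4 and Kcnj10 by astrocytes, Rlbp1 and Car14 by the retinal pigment epithelium, and Gpr37 by oligodendrocytes.

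Among the members with a promoter window in use, those whose values differed most between libraries, or stood highest between genotypes, are shown first. Promoter windows of 6 of the 10 genes, taken from RefSeq (GRCm38.p6), were used. Each holds the 250 bases before the start of the gene, and those printed run 5′ to 3′ on the gene's strand. A gene without a window in use may still have one in RefSeq. Starts here are those of RefSeq, and the gene positions given below are those of GENCODE M21, so the Rlbp1 and Car14 windows reach a short way into the genes as GENCODE places them. The Gpr37 window, counted but not printed, lies wholly inside Gpr37 as GENCODE places it. Capitals mark matches, on either strand, to CCAAT, the box bound by NF-Y, to ACAAT, the core bound by SOX factors, or to TAATCC, the site bound by the photoreceptor factors CRX and OTX2; the 3 motifs do not overlap one another in these windows.
Glul, chr1:153899679-153899928, plus strand: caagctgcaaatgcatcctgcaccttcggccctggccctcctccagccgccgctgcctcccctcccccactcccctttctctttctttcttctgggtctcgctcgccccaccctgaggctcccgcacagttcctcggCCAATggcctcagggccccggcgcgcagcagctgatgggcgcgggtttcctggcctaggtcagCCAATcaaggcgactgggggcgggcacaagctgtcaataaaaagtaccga
Rlbp1, chr7:79387028-79387277, minus strand: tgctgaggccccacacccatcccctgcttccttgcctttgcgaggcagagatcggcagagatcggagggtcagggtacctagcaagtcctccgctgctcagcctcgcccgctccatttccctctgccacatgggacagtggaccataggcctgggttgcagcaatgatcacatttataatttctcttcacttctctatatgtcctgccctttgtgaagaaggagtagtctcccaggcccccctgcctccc
Car14, chr3:95904686-95904935, minus strand: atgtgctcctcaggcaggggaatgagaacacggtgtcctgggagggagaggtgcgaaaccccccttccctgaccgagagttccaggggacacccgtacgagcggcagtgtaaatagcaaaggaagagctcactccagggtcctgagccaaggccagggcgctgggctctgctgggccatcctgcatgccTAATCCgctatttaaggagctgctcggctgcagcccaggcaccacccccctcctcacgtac
The Glul window held 2 CCAAT matches, the Car14 window 1 TAATCC match, and the Rlbp1 window none of the 3 motifs. Among the 6 windows of members, CCAAT was found in 3, ACAAT in 1 and TAATCC in 1. Over 32851 windows of the same length, 33.9% held CCAAT, 27.7% held ACAAT and 6.25% held TAATCC. A match is a description of these letters only.

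The 6 libraries held 14865868 to 17087621 reads, and the values are given as normalised reads, which are read counts divided by 1 size factor per library. Emcn, the deleted gene, had 1.95, 1.04 and 4.62 normalised reads in the Emcn-/- libraries, against 93.3, 80.6 and 100.5 in the Emcn+/+ libraries, so each library fitted its genotype label. The sample titles fall into a series numbered in the 180s, with replicate 3 of each genotype, and a series numbered in the 140s, with replicates 1 and 2 of each genotype. What the numbers stand for is not stated. Emcn+/+ replicate 3 was also the only library, 1 of 6, with abundant reads of a female-specific transcript. The tissue label was checked against rod genes: all 20 rod markers were among the tested genes, with summed levels of 1.10e+06 to 1.28e+06 normalised reads per library.

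Between the genotypes none of the 10 genes passed the test. With limma at an adjusted p under 0.05, 0 of 10 were called, against 1 of all 16681 tested genes (0.00599%), which was Emcn itself. At an unadjusted p under 0.05 limma counted 2 of the 10, Car14 and Dkk3, and 1358 of all genes. Neither edgeR nor DESeq2 called any of the 10 on the recovered reads, where edgeR called 1 gene and DESeq2 called 82 of 6972 genes with an adjusted p (1.18%); Sox9 had no adjusted p in DESeq2. On the log2(value + 1) scale the differences of the 10 genes ran from -0.19 to 0.40 with a median of 0.13 (0.07 without Emcn+/+ replicate 3), 6 above 0 and 4 below, beside a median of 0.01 over all tested genes, of which 52.0% were above 0. In 1 of the 10 genes, Gpr37, the 3 libraries of the genotypes did not overlap, with Emcn-/- lower, against 14.4% of all tested genes (7.48% with Emcn-/- higher and 6.94% with Emcn-/- lower).

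**Figure D1:**
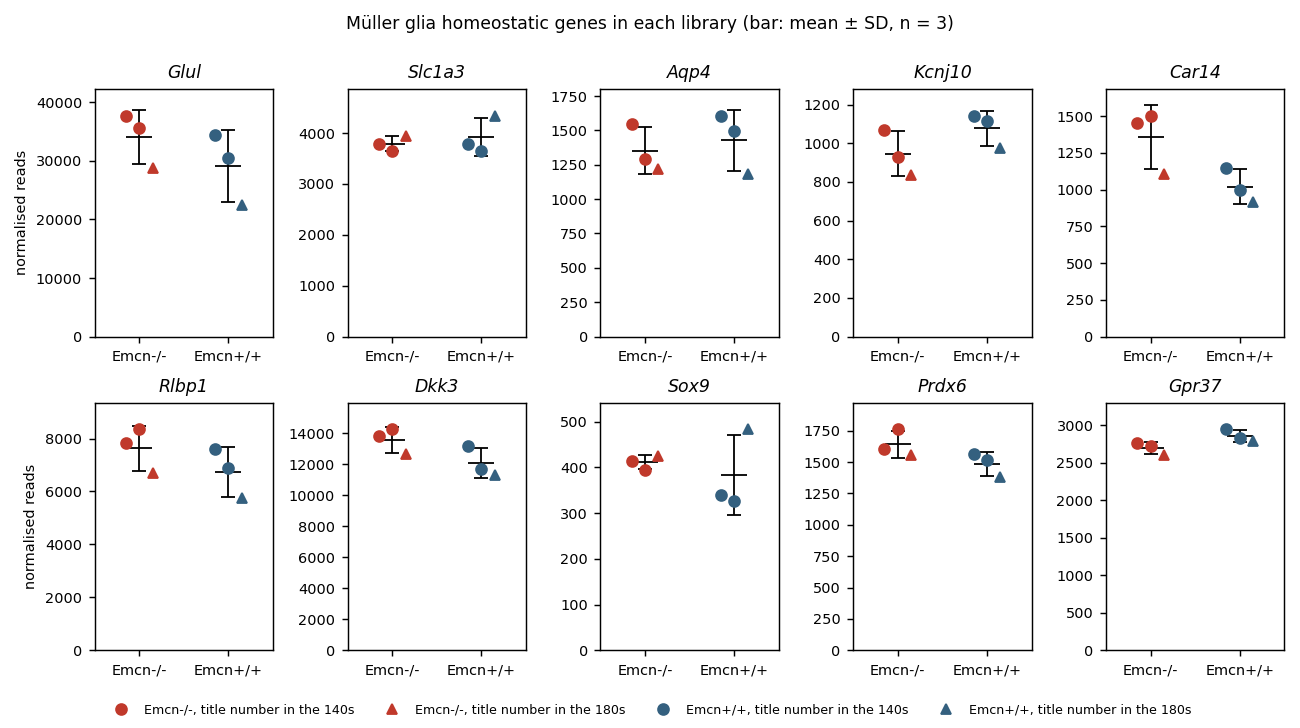
Normalised reads of each of the 10 genes in the 3 Emcn-/- libraries (left) and the 3 Emcn+/+ libraries (right), with the mean and SD of each genotype; circles are libraries with title numbers in the 140s and triangles those in the 180s. The y axes start at 0. In Glul, Rlbp1 and Aqp4 both triangles lie below all 4 circles, and in Gpr37 all Emcn-/- points lie below the Emcn+/+ points.

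Glutamate handling is served by Glul, glutamine synthetase, the enzyme that makes glutamine from glutamate, and by Slc1a3, the transporter GLAST that takes glutamate up. Glul (chromosome 1, 153899944 to 153909723, plus strand) had 37744, 35615 and 28856 normalised reads in the Emcn-/- libraries, against 34454, 30533 and 22486 in the Emcn+/+ libraries. The ranges overlapped, and the lowest value of each genotype was that of the 180s library. The means were 34072 ± 4641 in Emcn-/- and 29158 ± 6101 in Emcn+/+ (SD, n = 3 each), a log2 difference of 0.24 ± 0.16 (SE; 95% interval -0.12 to 0.59; limma adjusted p = 0.709). Glul exons overlap those of the opposite-strand gene Teddm2, whose mean level was 19.8 normalised reads. Slc1a3 had 3788, 3645 and 3943 normalised reads in Emcn-/- and 3794, 3645 and 4344 in Emcn+/+. These libraries interleaved, apart from Emcn+/+ replicate 3, the highest of the 6. The difference was -0.05 ± 0.07 on the log2 scale (interval -0.21 to 0.12; limma adjusted p = 0.880), and without Emcn+/+ replicate 3 it was 0.03.

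The channel genes of the glial endfeet are Aqp4, the water channel aquaporin 4, and Kcnj10, the potassium channel Kir4.1. Aqp4 had 1544, 1295 and 1217 normalised reads in Emcn-/- libraries and 1608, 1498 and 1179 in Emcn+/+ libraries. The groups overlapped, with a log2 difference of -0.07 ± 0.12 (SE; interval -0.36 to 0.21; limma adjusted p = 0.896). Leaving out Emcn+/+ replicate 1 turned this difference to 0.02. Kcnj10 (chromosome 1, 172341210 to 172374085) had 1070, 930 and 837 normalised reads in Emcn-/- and 1143, 1114 and 973 in Emcn+/+. Emcn-/- replicate 3 was the lowest of all 6, but Emcn-/- replicate 1 lay above Emcn+/+ replicate 3. Its log2 difference of -0.19 ± 0.10 was the lowest of the 10 genes (interval -0.42 to 0.03; limma adjusted p = 0.656).

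Acid and retinoid handling are represented by Car14, a membrane-bound carbonic anhydrase that speeds the exchange of carbon dioxide and bicarbonate, and Rlbp1, the protein CRALBP that binds 11-cis retinoids. Car14 (chromosome 3, 95897768 to 95904691, minus strand) had 1457, 1504 and 1106 normalised reads in Emcn-/- and 1150, 997 and 914 in Emcn+/+. Only Emcn-/- replicate 3 fell within the Emcn+/+ range. Car14 averaged 1356 ± 217 in Emcn-/- and 1021 ± 120 in Emcn+/+ (SD, n = 3 each), 1.32-fold on the fitted scale. The log2 difference was 0.40 ± 0.13, the highest of the 10 genes (interval 0.12 to 0.69; unadjusted p = 0.0110 and adjusted p = 0.499 with limma). With DESeq2 its adjusted p was 0.0904, and with limma within the 140s libraries alone it was 0.0630. Car14 exons overlap those of the opposite-strand gene Aph1a, at a mean of 572 normalised reads and a log2 difference of -0.07 (limma adjusted p = 0.822). The sources do not settle if strand was kept, so reads from the stretch the genes share cannot be told apart.

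Rlbp1 (chromosome 7, 79374870 to 79387048, minus strand) had 7828, 8344 and 6702 normalised reads in Emcn-/- libraries and 7592, 6886 and 5740 in Emcn+/+ libraries. As in Glul, the 180s library was the lowest of its genotype. The log2 difference was 0.18 ± 0.11 (interval -0.07 to 0.43; limma adjusted p = 0.694). Without Emcn+/+ replicate 3 the differences of Glul and Rlbp1 were 0.06 and 0.07, but that fit leaves a 180s library in Emcn-/- alone. Among the 140s libraries, which also lack Emcn+/+ replicate 3, the differences were 0.18 and 0.16. Without Emcn+/+ replicate 3, 151 of all genes were called (0.905%) and none of the 10.

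The other 4 genes have roles in signalling, identity and protection from peroxide. Dkk3, a secreted member of the dickkopf family, had 13839, 14252 and 12655 normalised reads in Emcn-/- and 13158, 11714 and 11322 in Emcn+/+; only Emcn+/+ replicate 1 reached into the Emcn-/- range. Its log2 difference was 0.17 ± 0.07 (interval 0.00 to 0.34; unadjusted p = 0.0456 and adjusted p = 0.601 with limma). Sox9, a transcription factor of glial identity, had 414, 394 and 424 normalised reads in Emcn-/- and 340, 326 and 483 in Emcn+/+. The 3 Emcn-/- libraries lay between the low and the high Emcn+/+ libraries, and the difference of 0.12 ± 0.14 had an interval from -0.20 to 0.44 (limma adjusted p = 0.832). Without Emcn+/+ replicate 3 it was 0.30, still not called.

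Prdx6, a peroxiredoxin that reduces peroxides and phospholipid hydroperoxides (chromosome 1, 161240112 to 161251219), had 1603, 1760 and 1560 normalised reads in Emcn-/- and 1567, 1514 and 1378 in Emcn+/+. Emcn-/- replicate 3 lay just below Emcn+/+ replicate 1, and the log2 difference was 0.14 ± 0.07 (interval -0.02 to 0.30; limma adjusted p = 0.643). Gpr37, a G protein-coupled receptor for which prosaposin has been described as a ligand, had 2770, 2727 and 2605 normalised reads in Emcn-/- and 2947, 2833 and 2795 in Emcn+/+. Every Emcn-/- value was below every Emcn+/+ value, by a log2 difference of -0.08 ± 0.05 (interval -0.20 to 0.03; limma adjusted p = 0.696). The gap between the closest pair, Emcn-/- replicate 1 and Emcn+/+ replicate 3, was smaller than the SD of either genotype.

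**Figure D2:**
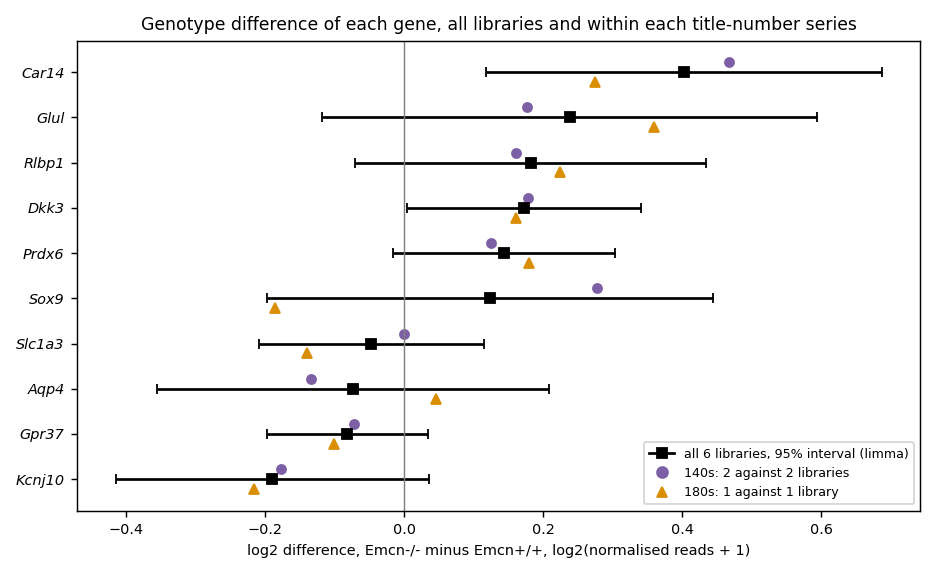
Log2 difference, Emcn-/- minus Emcn+/+, of each of the 10 genes with its 95% limma interval, on the log2(value + 1) scale. The differences run from -0.19 for Kcnj10 to 0.40 for Car14, and no gene passed the adjusted test.

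On a scale of normalised reads per kb of exonic length, which allows genes to be compared, the levels of the 10 genes spanned about 2 orders of magnitude. Glul stood highest at a mean of 9514 per kb over the 6 libraries and exceeded 99.9% of the 16419 tested genes with a length. Dkk3 at 3818 and Rlbp1 at 2431 followed, with ranges over libraries that did not overlap those of their neighbours. Car14 at 467, Gpr37 at 458 and Slc1a3 at 452 could not be ordered, since their ranges overlapped. Prdx6 came next at 325, its highest library (366) just above the lowest of Car14 (359), then Aqp4 at 223 and Kcnj10 at 187, whose ranges overlapped with each other, and Sox9 was lowest at 96.0, above 56.6% of the tested genes. Relative spread over the 6 libraries was smallest for Gpr37, with a coefficient of variation of 4.09%, and largest for Car14 at 20.3%, while Glul had 17.5%.

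**Figure D3:**
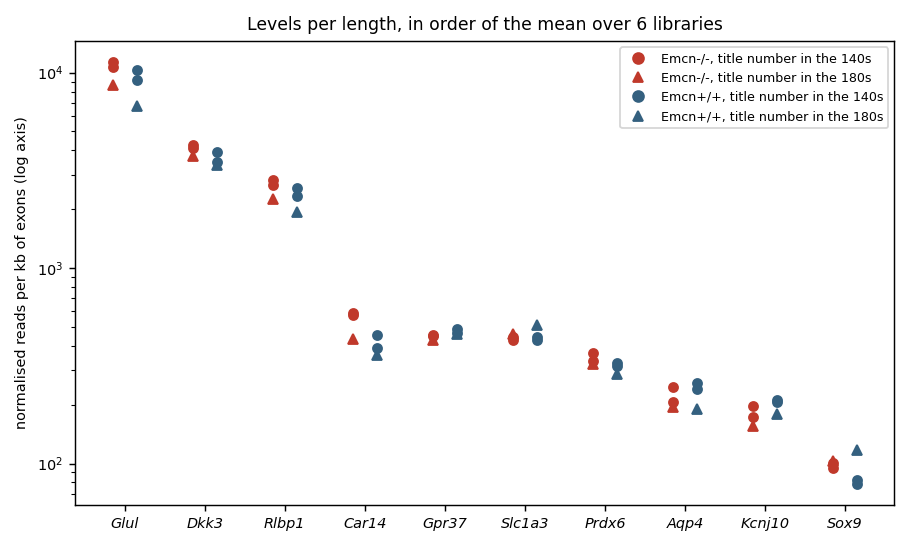
Normalised reads per kb of exonic length of the 10 genes in each library, on a log axis, ordered by mean. Glul lies highest, Dkk3 and Rlbp1 next, and Sox9 lowest; Car14, Gpr37 and Slc1a3 lie together, with means between 452 and 467.

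The libraries also differed by the series of their title numbers. This comparison was chosen after the values were seen. With genotype as a term in limma, 8 of the 10 genes had a log2 difference below 0 between the 180s and the 140s libraries and 2, Slc1a3 and Sox9, one above 0, with a median of -0.19 beside 0.00 over all tested genes. Of the 10, Glul was called lower, against 40 of all genes called lower (0.24%) and 128 called in either direction (0.767%). The Glul difference was -0.44 ± 0.07 (interval -0.60 to -0.27; limma adjusted p = 0.0385), and the 180s library stood at 78.7% of the mean of the 140s libraries in Emcn-/- and at 69.2% in Emcn+/+. The call was lost without Emcn-/- replicate 1 (-0.43, limma adjusted p = 0.134), Emcn+/+ replicate 2 (-0.46, 0.0975) or Emcn+/+ replicate 3 (-0.35, 0.588).

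Rlbp1 missed the threshold by little, at a series difference of -0.30 (limma adjusted p = 0.0503), with the 180s library at 82.9% of the 140s mean in Emcn-/- and at 79.3% in Emcn+/+. Aqp4 (-0.31, limma adjusted p = 0.0972) and Car14 (-0.32, 0.0739) were also not called, although Aqp4 passed without Emcn-/- replicate 2 (-0.37, 0.0385). In 3 genes, Glul, Rlbp1 and Aqp4, both 180s libraries lay below all 140s libraries, and in 2, Slc1a3 and Sox9, both lay above them; over all genes 11.5% lay below and 12.8% above. Slc1a3 differed by 0.15 (limma adjusted p = 0.176) and Sox9 by 0.30 (0.199) between the series, and the Sox9 shift was carried by Emcn+/+, whose 180s library had 145% of its 140s mean, against 105% in Emcn-/-. Kcnj10, Dkk3, Prdx6 and Gpr37 differed by -0.23, -0.14, -0.13 and -0.06, and none was called.

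Beside these values, markers of reactive gliosis were higher in the 180s libraries. Of the 22 tested genes on that list all 22 had a positive series difference, with a median of 1.03, and limma called 9 higher, against 0.528% of all tested genes, among them Gfap, the filament protein of reactive glia, at 1.36 (adjusted p = 0.00821) and Vim, the filament vimentin, at 0.69. Gfap had 2803 normalised reads in the 180s library, against 1347 and 1258 in the 140s libraries, in Emcn-/- pups, and 3372 in the 180s library, against 999 and 1223, in Emcn+/+ pups. By genotype the gliosis list had a median difference of -0.01, with 10 genes above 0, 12 below and none called. Leaving out Emcn-/- replicate 3 gave -0.29, and leaving out Emcn+/+ replicate 3 gave 0.44. In each of these fits the 180s series holds only the other genotype, so the values take in the difference between series. Among the 140s libraries alone the median was 0.18. The 180s series also holds Emcn+/+ replicate 3, the library with female-specific reads, without which the Glul difference was -0.35. Without that library limma called none of the gliosis list between the series, and 1 each without Emcn-/- replicate 1 or without Emcn+/+ replicate 2; the list's median was 0.58, 1.08 and 1.02 in these fits. The 30 other Müller glia markers, some of which are also on the gliosis list, had a series median of -0.01, with 14 above 0 and 16 below. Of these, limma called 2 higher, against 0.528% of all tested genes, and none lower. The part of gliosis in the series differences of the 10 genes was not tested.

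**Figure D4:**
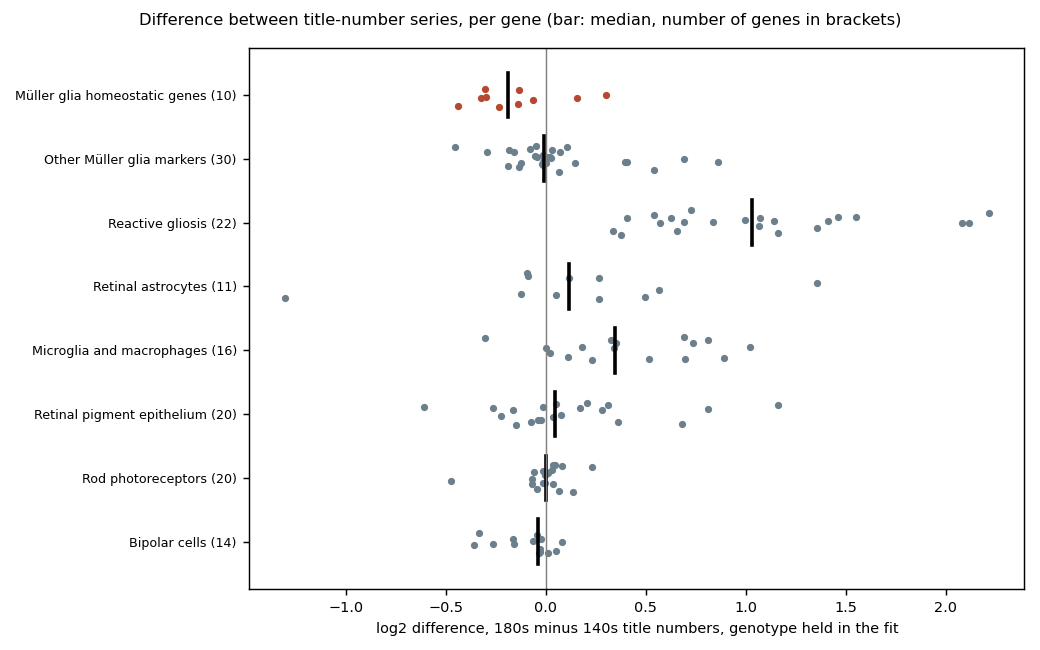
Log2 difference between libraries numbered in the 180s and the 140s, genotype in the fit, for each gene of the lists; the bar is the median and the number of genes is in brackets. The 10 homeostatic genes have a median of -0.19, the other Müller glia markers one of -0.01 and the reactive gliosis genes one of 1.03.

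Within each series the genotype difference could be read without that shift. In 7 of the 10 genes the Emcn-/- libraries lay on the same side of the Emcn+/+ libraries in both series: above in 5 (Glul, Rlbp1, Car14, Dkk3 and Prdx6) and below in 2 (Kcnj10 and Gpr37). Over all tested genes 26.9% did so, 14.3% above and 12.6% below. Each series has few libraries, with 1 of each genotype in the 180s, so these counts carry no test. Nor are the genes separate observations. Across all libraries the 5 genes named as above correlated with one another at r of 0.84 to 0.97, and Kcnj10 with Gpr37 at 0.92. The log2 difference of Car14 was 0.28 in the 180s and 0.47 in the 140s, and that of Glul 0.36 in the 180s and 0.18 in the 140s. Kcnj10 differed by -0.22 in the 180s and -0.18 in the 140s. The sign was not shared in Sox9, at -0.19 in the 180s and 0.28 in the 140s, or in Aqp4, at 0.05 in the 180s and -0.13 in the 140s. With the title series as a term beside genotype, the SE of Glul was 0.07 and its limma adjusted p 0.246, that of Car14 was 0.116, and again 1 gene was called and none of the 10. With limma on the 140s libraries alone 42 genes were called (0.252%) and none of the 10.

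The other genes of these pathways were tested in the same fit, and limma called none of them by genotype. At an unadjusted p under 0.05 limma counted 1358 of all 16681 tested genes. In glutamate and glutamine handling all 16 listed genes were tested, 8 with a difference above 0 and 8 below, with a median of -0.01; 4 had an unadjusted p under 0.05. Its most abundant genes were Slc38a3, a glutamine transporter, with means of 6976 ± 744 normalised reads for Emcn-/- and 7287 ± 468 for Emcn+/+, and Got1, an aspartate transaminase, with 4713 ± 253 for Emcn-/- and 4815 ± 177 for Emcn+/+ (SD, n = 3 each). In water and potassium handling 18 of 20 were tested, 11 above 0 and 7 below, with a median of 0.02, and 3 at an unadjusted p under 0.05. Atp1b2, a beta subunit of the sodium pump, differed by 0.01 and Dmd, the dystrophin that anchors endfoot channels, by -0.16.

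Acid, bicarbonate and lactate handling had 16 of 17 genes tested, 10 above 0 and 6 below, with a median of 0.05. Its most abundant gene was Bsg, basigin, the partner of the lactate transporters, at 14951 ± 182 in Emcn-/- and 12302 ± 1223 in Emcn+/+ (SD, n = 3 each; log2 difference 0.29, limma adjusted p = 0.415). DESeq2 called Bsg, the only gene of this list, against 1.18% of all genes with an adjusted p. Retinoid handling had 22 of 24 tested, 21 above 0 and 1 below, with a median of 0.22. In limma 8 had an unadjusted p under 0.05, against 1358 of all 16681 tested genes. Rbp3, the retinoid carrier between photoreceptors and their neighbours, differed by 0.02 and Rdh12, a photoreceptor retinol dehydrogenase, by 0.12. Peroxide and glutathione handling had all 21 tested, 18 above 0 and 3 below, with a median of 0.12, or 0.022 without Emcn+/+ replicate 2. Gpx4, a glutathione peroxidase of lipids, differed by 0.20 and Prdx2, a cytosolic peroxiredoxin, by 0.13.

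Relatives of Dkk3, Sox9 and Gpr37 were not called either. The Dickkopf family and Wnt co-receptors had 5 of 8 tested, 3 above 0 and 2 below, with Lrp6, a Wnt co-receptor, at -0.15. Of 16 transcription factors of glial and progenitor identity 11 were above 0 and 5 below, with a median of 0.09; Pax6, used by retinal progenitors, differed by 0.03. Psap, which encodes prosaposin, averaged 13367 ± 430 in the Emcn-/- libraries and 12307 ± 531 in the Emcn+/+ libraries (SD, n = 3 each; log2 difference 0.12, limma adjusted p = 0.633).

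**Figure D5:**
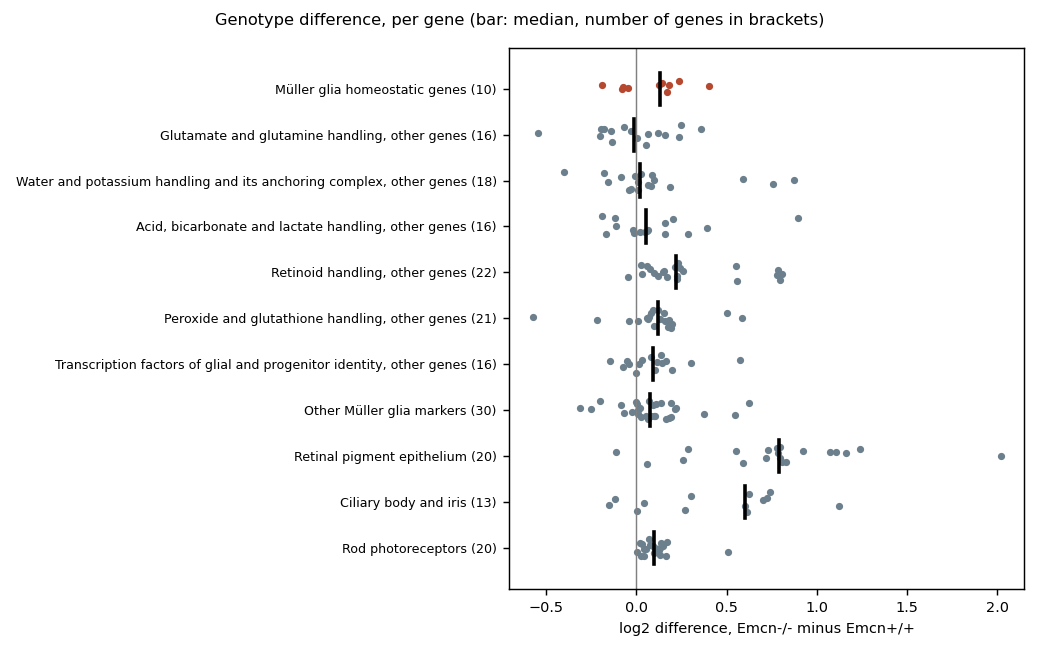
Log2 difference, Emcn-/- minus Emcn+/+, of each tested gene of the homeostatic group and of the lists of other pathway and cell type genes; the bar is the median and the number of genes is in brackets. The 10 homeostatic genes have a median of 0.13, retinoid handling one of 0.22 and retinal pigment epithelium one of 0.79.

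Pigment epithelium markers had mostly positive differences, as had Rlbp1 and Car14, which that tissue also expresses, and 6 of the retinoid handling genes are on its list too. Of 20 tested markers 19 had a difference above 0, with a median of 0.79, or 0.55 without Emcn+/+ replicate 2. Limma called none, and 12 had an unadjusted p under 0.05, against 1358 of all 16681 tested genes. Their summed level was 17346, 21295 and 21261 normalised reads in Emcn-/- libraries and 16673, 11904 and 14282 in Emcn+/+ libraries, so the groups did not overlap. This sum is not of pigment epithelium alone. Its 2 most abundant genes, Trpm1 (log2 difference -0.11) and Otx2 (0.06), are bipolar cell markers too. The defining marker Rpe65, the retinoid isomerase of that epithelium, had 697, 1086 and 694 normalised reads in Emcn-/- and 673, 294 and 505 in Emcn+/+ (log2 difference 0.80, limma adjusted p = 0.528). Of the other members, Glul (0.24), Dkk3 (0.17), Prdx6 (0.14) and Sox9 (0.12) were also above 0, and 4 were below. All 20 rod markers were above 0 by genotype as well, with a median of 0.09, and limma called none. In 5 of them the genotypes did not overlap, with Emcn-/- higher, against 7.48% of all tested genes. The part of pigment epithelium in the values of Rlbp1, Car14 and the retinoid list was not tested.

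Among other Müller glia markers 23 of 30 tested genes were above 0 and 7 below, with a median of 0.08, or 0.14 without Emcn+/+ replicate 3. Apoe, the lipid carrier, averaged 14199 ± 388 in the Emcn-/- libraries and 10979 ± 1015 in the Emcn+/+ libraries (normalised reads; SD, n = 3 each), with no overlap and a log2 difference of 0.37 (limma adjusted p = 0.374). Of this list 9 genes did not overlap with Emcn-/- higher and 2 with Emcn-/- lower, against 7.48% and 6.94% of all tested genes. DESeq2 called Apoe, Col9a1 and Timp3 of the list, against 1.18% of all genes with an adjusted p. Retinal astrocyte markers had 11 of 13 tested, 7 above 0 and 4 below, with a median of 0.21, or -0.05 without Emcn-/- replicate 3. Of 14 oligodendrocyte markers 7 were tested, 5 above 0 and 2 below, with a median of 0.03, or 0.23 without Emcn+/+ replicate 3.

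Across the 6 libraries the genes most like the mean of the 10 standardised log2 values were Ncald (Pearson r = 0.994), Ica1 (0.990), Fam131a (0.988), Klhl32 (0.985) and Trnp1 (0.984), out of 11109 candidate genes. These correlations are the highest of all candidates, share library, depth and title series, and are given as a description. The mean also takes in members that ran opposite ways, such as Glul and Slc1a3 (r = -0.84). Ncald had 2017, 1968 and 1746 normalised reads in Emcn-/- and 1948, 1787 and 1683 in Emcn+/+, lowest in the 180s libraries of both genotypes, as Glul was.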

How the data were processed

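Values per gene were deposited by the authors for 6 poly-A libraries (1.3 µg RNA each), 3 per genotype, per the labels' protocols. The build was GRCm38, per the submitters' processing notes; for aligner, counter and scaling nothing is given in the sources. The deposited signal was a normalised read value: in every library 100% of values were whole multiples of 1 step (tolerance 0.01), as counts divided by a size factor (0.916 to 1.08) give, so read counts were recovered. A count of 0 sets an upper limit of 2.77 to 3.28 normalised reads (3 reads), which covers counting error alone. Each of the 6 columns was used. Of 28627 gene IDs, 27386 were in GENCODE M21, which gave positions and exonic lengths; 21 symbols stood on several IDs. The protocol text covers libraries with and without strand marks.

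Low genes were removed with filterByExpr of edgeR (minimum count 10). The main test used log2(value + 1) in limma 3.58.1 under R 4.3.3, trended on intensity, with genotype as its term and Benjamini-Hochberg adjustment over 16681 genes at 0.05; such differences understate the change of low genes. edgeR 4.0.16 and DESeq2 1.42.0 on recovered reads, other scalings, pseudocounts, filters, covariates and leaving out each library were alternatives, and the limma, edgeR and DESeq2 fits were tested on simulated data. The members and the lists were chosen with earlier results of these data known. Named are the members, Emcn, marker genes of neighbouring cells, the most abundant genes of lists and called genes; Teddm2, Aph1a, Vim, Col9a1 and Timp3 were named, and the split by title number was added, after the values were seen. Results for some genes that this rule names are not reported here.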

Additional observations from a re-analysis of the deposited data

How the results depend on the processing

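Across 17 alternatives no member was called by genotype, and of 170 member differences 166 kept their sign. The median of the members stayed between 0.07 and 0.14 on the log2 scale. These alternatives are not all separate checks. With sex as a covariate the differences equal those without Emcn+/+ replicate 3, the only library with female-specific reads. With the title series as a term they equal those of the main fit. The signs that turned were those of Slc1a3 (0.027 with sex as a covariate, 0.0020 with a length trend removed, -0.099 to 0.027 leaving out a library) and Aqp4 (-0.21 to 0.017 leaving out a library). The number of genes called, 1 with limma, was 82 with DESeq2, 153 with sex as a covariate, 42 in the 140s libraries alone, and 0 to 151 leaving out a library: 0 without Emcn-/- replicate 1, Emcn+/+ replicate 1 or Emcn+/+ replicate 2, and 151 without Emcn+/+ replicate 3. Members whose genotypes do not overlap, 1 with all libraries, numbered 8 in the 140s alone, where 46% of all tested genes did not overlap, and 1 to 6 leaving out a library, where 21% to 35.9% did not (6 without Emcn-/- replicate 3, with 23.1%). Between the title series 128 genes and 1 member were called, and 1 to 407 genes and 0 to 2 members leaving out a library (1 gene without Emcn+/+ replicate 3, 2 without Emcn+/+ replicate 2, 6 without Emcn-/- replicate 1, 407 without Emcn-/- replicate 3); edgeR called 154 genes and 1 member. The cause was not tested. No paired analysis was possible because the labels give no replicate numbers that pair libraries; with the title series as a term, 1 gene and 0 members were called. Having 3 libraries a genotype limits precision to the intervals printed beside each gene. Medians of the glutamate list (-0.022 to 0.013), the water and potassium list (-0.0037 to 0.033), the acid list (0.024 to 0.10) and bipolar markers (-0.052 to 0.015) lay close to 0 leaving out a library.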

Other observations

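Endothelial markers, the cells in which Emcn is made, were mostly below 0 in Emcn-/-: 13 of 15 tested genes, with a median log2 difference of -0.24, although limma called only Emcn of that list. Both the count and the median include Emcn, the deleted gene. Without Emcn-/- replicate 2, whose summed level of 5988 normalised reads stood below the 8872 to 9103 of the other Emcn-/- libraries and the 8966 to 9553 of the Emcn+/+ libraries, the median was 0.05. Kdr, the main receptor of vascular endothelial growth factor, averaged 2582 ± 288 normalised reads for Emcn-/- and 3073 ± 79.0 for Emcn+/+ (SD, n = 3 each; limma adjusted p = 0.499). Hypoxia genes had 14 of 19 tested above 0 and 5 below, with a median of 0.15, or 0.26 without Emcn+/+ replicate 3; Eno1 and Aldoa, both glycolytic enzymes, differed by 0.19 each and were not called. Markers of ciliary body and iris had 11 of 13 tested above 0 and 2 below, with a median of 0.60, or 0.26 without Emcn+/+ replicate 2. Of these DESeq2 called Col9a2 and Col9a3, against 1.18% of all genes with an adjusted p.

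Microglia and macrophage markers had 5 of 16 genes above 0 and 11 below by genotype, with a median of -0.06, or 0.12 without Emcn+/+ replicate 3. That fit leaves a 180s library in Emcn-/- alone, and among the 140s libraries alone the median was 0.07. Between the title series 15 of the 16 were above 0, with a median of 0.35, and limma called 2 of them higher in the 180s libraries, against 0.528% of all tested genes; none was called without Emcn-/- replicate 1, Emcn+/+ replicate 2 or Emcn+/+ replicate 3. Bipolar cell markers had a median of -0.02 by genotype, 5 above 0 and 9 below. Across the libraries the homeostatic genes did not vary as 1 group: the Pearson correlation of log2 values was highest for Dkk3 with Car14, at 0.97, and lowest for Glul with Slc1a3, at -0.84, over 6 libraries that share depth and title series.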
